A study of Homo sapiens with 12 samples.

Results

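The 9 genes described here are CDKN2A, CDKN2B and MTAP, which lie next to each other in band 9p21, and 6 genes of the pathway on which the CDKN2 proteins act: CCND1, CCND2, CCND3, CDK4, CDK6 and RB1. They were chosen by gene symbol, with their FPKM values in these libraries already known, from 23284 symbols listed, and all 9 were among the 12946 genes kept for testing, those that reached an FPKM of 1 in 2 or more libraries. FPKM counts sequenced fragments per length of the transcript and per number of mapped fragments, so that levels can be set side by side between genes. RNA was sequenced in 12 libraries labelled PANC-1, a cell line from a human pancreatic ductal carcinoma, 2 libraries in each of 6 groups. All groups carried the retroviral vector pQCXIN-ZsGreen-cODC, which expresses the green protein ZsGreen fused to the degron of ornithine decarboxylase and leaves cells with low proteasome activity fluorescent, and all had been selected with G418. Degron (++) cells were the brightest part of a line enriched for ZsGreen by repeated sorting and culture, and degron (-) cells were the infected line before that enrichment. Each population has unirradiated libraries (0 Gy, all of them 48 h) and libraries given 4 Gy and taken at either 30 h or 48 h. The labels leave the starting point of these hours open. The labels of the degron (-) libraries conflict: their titles read ZsGreen–, while their descriptions read d+. The degron (++) line had been through sorting and further culture that the degron (-) line had not, and this history cannot be told apart from the reporter signal. No source says that the 2 libraries of a group came from separate cultures, so p-values measure only the spread between these libraries.

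CDKN2A encodes p16INK4a, which binds CDK4 and CDK6 and keeps them from pairing with D-type cyclins, and, from another first exon and reading frame, ARF, which binds and inhibits MDM2. CDKN2B encodes p15INK4b, a close relative of p16INK4a that also inhibits CDK4 and CDK6. Cyclin D with CDK4 or CDK6 phosphorylates RB1, which then releases E2F factors and lets cells enter S phase. MTAP encodes methylthioadenosine phosphorylase, the first enzyme of methionine salvage, and is often deleted together with CDKN2A in tumours. PANC-1 is known as a line with homozygous loss of CDKN2A and MTAP at 9p21. Both genes had an FPKM above 0 in all 12 libraries labelled PANC-1. Bulk RNA does not show what part of the cells carried either gene. The genotype of these cells was not tested, and an FPKM per gene symbol does not separate the transcripts of p16INK4a and ARF.

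The windows just before the starts of the 9p21 transcripts are shown so that the 3 neighbours, which differ most between the populations among the 9 genes together with CCND2, can be compared. Each run holds the 250 bases before a RefSeq transcript start of GRCh38.p14, on the strand of the gene, and capitals mark GGGCGG or its reverse complement CCGCCC, the letters of a GC box. The MTAP window is chr9:21802386-21802635 on the plus strand, the ARF window chr9:21995325-21995574, the p16INK4a window chr9:21974858-21975107 and the CDKN2B window chr9:22009306-22009555, the last 3 on the minus strand.
MTAP: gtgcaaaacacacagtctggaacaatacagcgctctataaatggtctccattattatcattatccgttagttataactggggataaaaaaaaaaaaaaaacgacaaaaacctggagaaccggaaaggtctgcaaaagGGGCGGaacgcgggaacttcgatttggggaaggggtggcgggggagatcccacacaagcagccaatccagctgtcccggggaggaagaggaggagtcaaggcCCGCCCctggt
CDKN2A, start of the ARF transcript: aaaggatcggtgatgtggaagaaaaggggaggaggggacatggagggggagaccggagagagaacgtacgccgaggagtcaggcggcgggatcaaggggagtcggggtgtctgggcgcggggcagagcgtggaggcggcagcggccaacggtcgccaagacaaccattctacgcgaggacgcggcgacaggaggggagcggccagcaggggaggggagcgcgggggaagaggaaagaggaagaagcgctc
CDKN2A, start of the p16INK4a transcript: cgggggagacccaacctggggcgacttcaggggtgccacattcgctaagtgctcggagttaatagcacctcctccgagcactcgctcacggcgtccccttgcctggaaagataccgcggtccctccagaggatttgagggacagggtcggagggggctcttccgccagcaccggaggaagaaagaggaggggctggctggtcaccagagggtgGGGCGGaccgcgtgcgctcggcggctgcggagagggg
CDKN2B: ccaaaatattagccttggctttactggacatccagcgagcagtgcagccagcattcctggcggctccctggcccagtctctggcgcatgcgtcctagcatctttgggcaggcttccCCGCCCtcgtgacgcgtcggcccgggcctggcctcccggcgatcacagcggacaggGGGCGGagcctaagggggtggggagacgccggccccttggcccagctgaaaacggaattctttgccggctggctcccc
The MTAP and CDKN2B windows hold 2 GC-box matches each, the p16INK4a window 1 and the ARF window 0. Of 35116 RefSeq windows of this length, 42.6% hold at least 1 match and 24.3% hold 2 or more. The count of CG dinucleotides was 11 in the MTAP window, which is the median over all windows, against 18 for CDKN2B, 20 for p16INK4a and 24 for ARF. Windows were found for 7 of the 9 genes. The palindrome CACGTG, the E-box bound by MYC, was absent from the 4 windows shown, occurred 3 times in that of CDK4 and was found in 6.34% of all windows. These are matches of letters only, and no binding or methylation was measured.

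CDKN2A was among the abundant transcripts of degron (++) cells. Its FPKM there was 108 and 103 at 0 Gy, 103 and 100 at 4 Gy (30 h), and 105 and 112 at 4 Gy (48 h). In degron (-) cells it was 18.8 and 15.2, 12.4 and 11.04, and 21.1 and 19.1 in the same order. The populations did not overlap, and the mean over 6 libraries was 105 ± 4.12 (SD) in degron (++) and 16.3 ± 4.04 in degron (-), a ratio of 6.46. CDKN2A stood above 93.3% to 94.2% of the genes with a value above 0 in degron (++) libraries and above 59.1% to 73.8% of them in degron (-) libraries. In bulk RNA, fewer cells with the transcript and less of it per cell cannot be told apart.

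CDKN2B was lower than CDKN2A in every library. In degron (++) cells its FPKM was 13.2 and 12.5 at 0 Gy, 10.6 and 9.79 at 4 Gy (30 h), and 14.1 and 15.5 at 4 Gy (48 h). In degron (-) cells it was 1.69 and 1.40, 0.907 and 1.07, and 2.14 and 2.83. The highest degron (-) library lay well under the lowest degron (++) library, and in both populations the 2 libraries at 30 h were the lowest. The ratio of the means was 7.53. CDKN2A and CDKN2B are similar in sequence, and how reads that match both were counted is not given in the sources used here.

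MTAP, the metabolic gene beside them, had an FPKM in degron (++) cells of 16.9 and 17.8 at 0 Gy, 17.4 and 18.5 at 4 Gy (30 h), and 17.7 and 16.4 at 4 Gy (48 h). In degron (-) cells it was 4.07 and 3.77, 2.83 and 3.28, and 5.001 and 4.87. The populations did not overlap, and the ratio of the means was 4.4. None of the 3 genes was listed at 0 in any library, and the lowest FPKM in degron (-) was 11.04 for CDKN2A and 2.83 for MTAP. RNA assigned to both genes was thus present in every library, and whether part of the cells lacked either gene was not tested. In degron (-) cells MTAP stood above 35.7% to 44.4% of the genes with a value above 0, and CDKN2B above 24.1% to 35.9%.

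**Figure D1:**
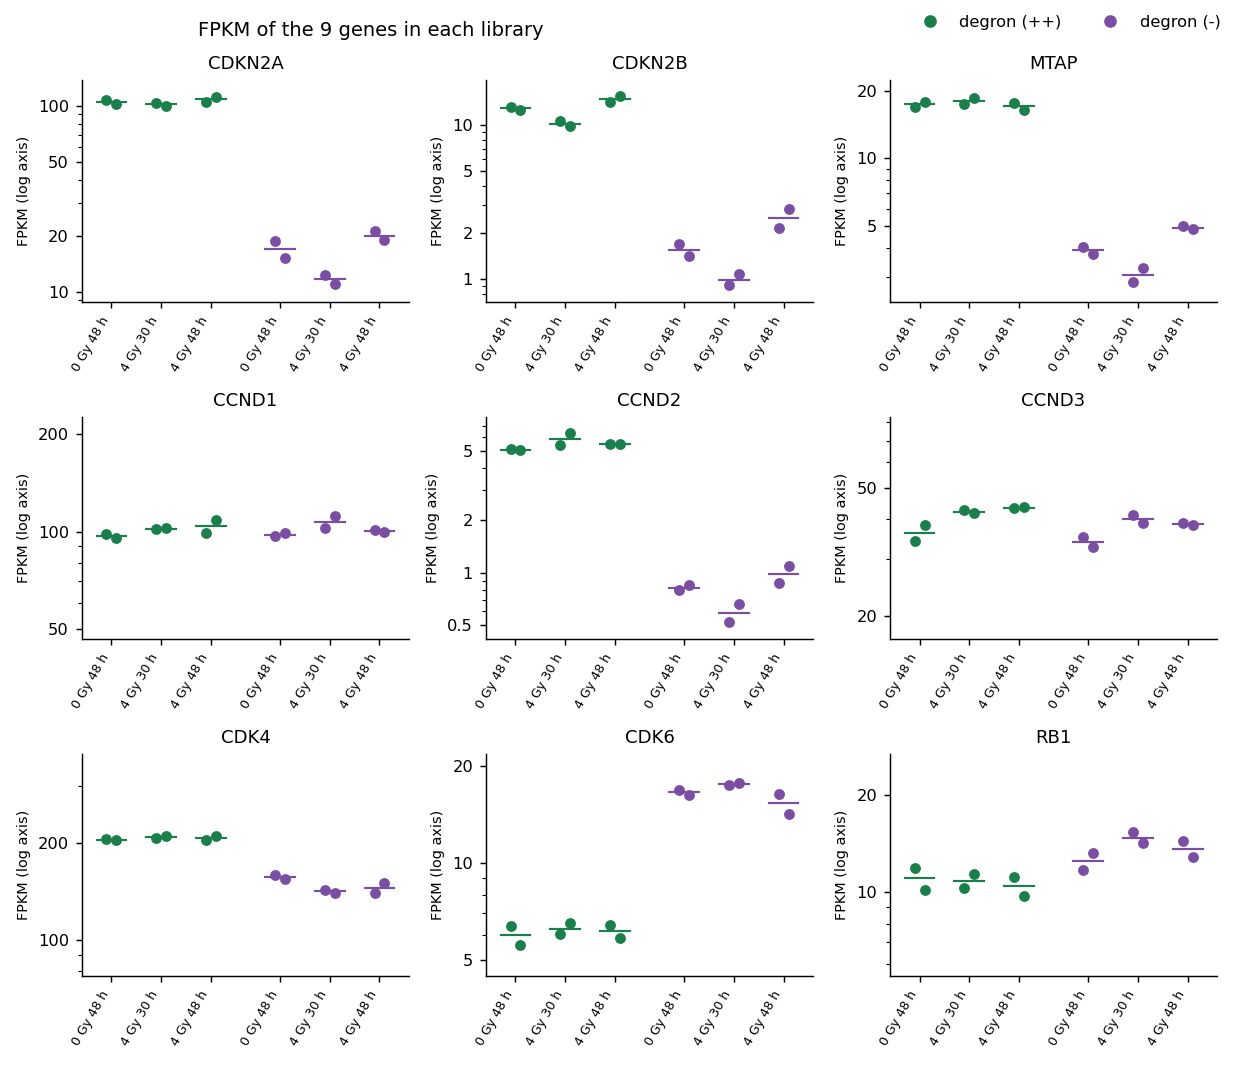
FPKM on log axes of the 9 genes in each of the 12 libraries, degron (++) in green and degron (-) in purple, with points for libraries and short lines for the means of 2. CDKN2A, CDKN2B, MTAP, CCND2 and CDK4 were higher in every degron (++) library, CDK6 was lower, and CCND1, CCND3 and RB1 overlapped as deposited, CCND1 and RB1 not after rescaling to equal sums.

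Each degron (-) library was then set against the mean of the 2 degron (++) libraries of the same dose and time. CDKN2A came to 16.2% ± 2.39 (SD, n = 2) at 0 Gy, 11.5% ± 0.935 at 4 Gy (30 h), and 18.5% ± 1.35 at 4 Gy (48 h). CDKN2B came to 12.1% ± 1.58, 9.71% ± 1.14 and 16.8% ± 3.32. MTAP came to 22.5% ± 1.21, 17.0% ± 1.79 and 29.0% ± 0.527. MTAP kept the largest share of the 3 in all 6 degron (-) libraries, CDKN2B the smallest in 5 and CDKN2A in the other. Within a library the largest share was 1.63 to 2.03 times the smallest. The median share of the 3 genes was 17.9% and 14.5% at 0 Gy, 12.2% and 10.9% at 4 Gy (30 h), and 19.5% and 19.1% at 4 Gy (48 h). Over all 12537 tested genes with such a share, the median was 99.7%, with quartiles of 68.4% and 149%, and 7.33% of them had a median share under 30%. These values chose the genes and are given as a description.

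Of the proportions among the 3 neighbours, that of CDKN2A to MTAP separated the populations. CDKN2A FPKM was 5.43 to 6.82 times that of MTAP in degron (++) libraries and 3.36 to 4.62 times in degron (-) libraries. MTAP was 1.06 to 1.89 times CDKN2B in degron (++) and 1.72 to 3.12 times in degron (-), and CDKN2A over CDKN2B was at 7.20 to 10.3 and 6.73 to 13.7, both with overlap.

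**Figure D2:**
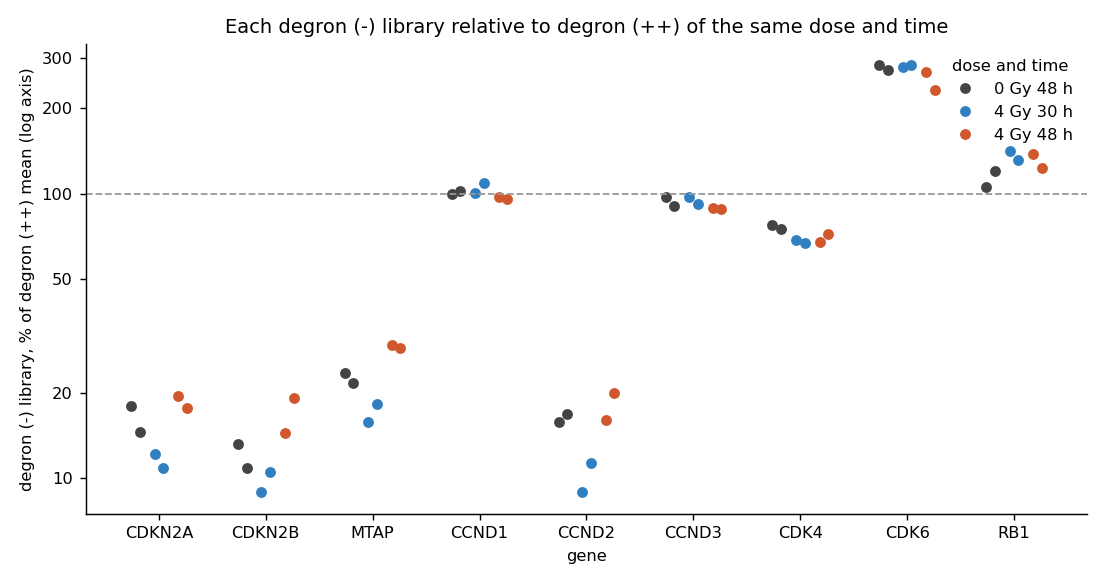
FPKM of each degron (-) library as a percentage of the mean of the 2 degron (++) libraries of the same dose and time, on a log axis, for the 9 genes, with 1 point a library and the dashed line at 100%. CDKN2A, CDKN2B, MTAP and CCND2 lay between 8.91% and 29.3%, CDK6 lay between 231% and 283%, and the other 4 genes lay between 67.0% and 142%.

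Among the D-type cyclins, the activating subunits of CDK4 and CDK6, CCND2 alone separated the populations in the FPKM as deposited. Its FPKM in degron (++) cells was 5.12 and 5.03 at 0 Gy, 5.41 and 6.30 at 4 Gy (30 h), and 5.51 and 5.48 at 4 Gy (48 h). In degron (-) cells it was 0.795 and 0.852, 0.525 and 0.659, and 0.877 and 1.09, so that the libraries at 30 h were again the lowest. As a share of degron (++) this was 16.2% ± 0.794, 10.1% ± 1.62 and 17.9% ± 2.75 (SD, n = 2), and 10.2%, 6.03% and 10.8% after quantile normalization. CCND2 reached the filter through degron (++) alone. CCND1, the most abundant of the 3 cyclins, ran from 95.4 through a median of 100 to 109 in degron (++) and from 97.0 through 100 to 111 in degron (-). CCND3 ran from 34.2 through 42.2 to 43.5 in degron (++) and from 32.7 through 38.6 to 41.2 in degron (-). For both genes the populations overlapped. Rescaled to equal sums (TPM), CCND1 no longer overlapped, at 108 to 119 in degron (++) and 127 to 148 in degron (-), and the degron (-) share of CCND3 turned from 93.8%, 94.8% and 89.0% to 109%, 116% and 107%, still with overlap. The 3 cyclins together had an FPKM of 137 to 158 in degron (++) libraries and of 132 to 151 in degron (-) libraries, and CCND1 was 16.2 to 19.8 times CCND2 in the former and 91.6 to 196 times in the latter.

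The kinases CDK4 and CDK6, which p16INK4a and p15INK4b inhibit, differed in opposite directions. CDK4 ran from 204 through a median of 207 to 211 FPKM in degron (++) and from 140 through 147 to 159 in degron (-), a ratio of the means of 1.40. CDK6 ran from 5.57 through 6.20 to 6.52 in degron (++) and from 14.2 through 16.7 to 17.7 in degron (-), where its mean was 2.70 times as high. Neither gene overlapped between the populations. CDK4 was 31.9 to 36.6 times CDK6 in degron (++) libraries and 7.90 to 10.6 times in degron (-) libraries, and was the more abundant kinase in all 12. RB1, the substrate of both, ran from 9.71 through 10.7 to 11.9 in degron (++) and from 11.8 through 13.8 to 15.4 in degron (-), with 1 degron (++) library above the lowest degron (-) library. After the same rescaling RB1 did not overlap, at 10.6 to 14.4 and 15.4 to 21.7. In all, 6 of the 9 genes did not overlap between the populations, 5 higher and 1 lower in degron (++), while 71.3% of all tested genes did not overlap in either direction. With equal sums it was 8 of 9 genes, CCND1 and RB1 being lower in degron (++), and 70.2% of all tested genes.

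Dose and time were compared within each population by limma on log2(FPKM + 1) across all tested genes, and each log2 difference is a difference on that scale, which understates changes of genes with low FPKM. The 9 genes were chosen with their levels in these libraries known, so their p-values for dose and time are a description. At 48 h, none of the 9 genes passed an adjusted p of 0.05 between 4 Gy and 0 Gy in degron (++) cells, where 1.82% of tested genes did. CCND3 came nearest, at 0.25 ± 0.0576 (SE, limma adjusted p = 0.0682), and was the 1 gene of 9 with an unadjusted p under 0.05. In degron (-) cells, where 4.73% of tested genes passed, again 0 of 9 did, and 5 of 9 had an unadjusted p under 0.05: CDKN2A, CDKN2B, MTAP, CCND3 and CDK4. The values were 0.23 ± 0.0936 for CDKN2A (limma adjusted p = 0.201), 0.45 ± 0.107 for CDKN2B (0.0519), 0.27 ± 0.0709 for MTAP (0.0673), 0.18 ± 0.0576 for CCND3 (0.123) and -0.11 ± 0.0385 for CDK4 (0.154). CDKN2B passed with a pseudocount of 0.1 (limma adjusted p = 0.044), with a filter at FPKM 5 (0.0471) and without degron (-) 4 Gy 48 h replicate 1 (0.0297). The dose difference did not pass between populations for any of the 9 genes either. There, 0.0772% of tested genes passed, and MTAP (-0.30 ± 0.1, limma adjusted p = 0.253) and CDK4 (0.13 ± 0.0545, 0.35) were the 2 of 9 with an unadjusted p under 0.05.

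Between 30 h and 48 h at 4 Gy, all 3 genes of 9p21 rose in degron (-) cells. CDKN2A was higher at 48 h by 0.73 ± 0.0936 (SE, limma adjusted p = 0.00277), CDKN2B by 0.80 ± 0.107 (0.00315) and MTAP by 0.55 ± 0.0709 (0.0028), and in each gene both libraries at 48 h lay above both at 30 h. They were the 3 of 9 that passed, against 7.18% of all tested genes. CCND2 followed at 0.32 ± 0.0877 (limma adjusted p = 0.0682), and passed with a pseudocount of 0.1 (0.0285) and without the trend of the variance on expression (0.0483). The other 5 genes had differences between -0.19 ± 0.0826 (CDK6) and 0.04 ± 0.0385 (CDK4) that did not pass. Fitted on the degron (-) libraries of the 2 times alone, CDKN2A passed (limma adjusted p = 0.0257), while CDKN2B (0.0562) and MTAP (0.0503) did not.

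In degron (++) cells none of the 9 genes passed between 30 h and 48 h, where 1.21% of tested genes did. CDKN2B was nearest, at 0.50 ± 0.107 (limma adjusted p = 0.0678), the 1 gene of 9 with an unadjusted p under 0.05. It passed without degron (-) 4 Gy 48 h replicate 1 (0.0491) and without replicate 2 of that group (0.0495). CDKN2A was at 0.09 ± 0.0936 and MTAP at -0.07 ± 0.0709. Tested as such, the time difference was smaller in degron (++) than in degron (-) for CDKN2A, by -0.64 ± 0.132 (limma adjusted p = 0.0405), and for MTAP, by -0.62 ± 0.1 (0.018), while CDKN2B gave -0.30 ± 0.151 (0.338). These were 2 of 9 genes, and 3.23% of tested genes passed. As the shares at each time were known when the genes were chosen, these p-values are no independent support. They concern relative change. In FPKM, the CDKN2A group means went from 102 to 109 in degron (++) and from 11.7 to 20.1 in degron (-), steps of similar size. Those of MTAP went from 17.9 to 17.0 and from 3.06 to 4.94. The CDKN2A call was lost when any 1 of the 4 degron (-) libraries at 4 Gy, or any 1 of the 6 degron (++) libraries, was left out, with adjusted p up to 0.124. The MTAP call was lost without either degron (++) 4 Gy 30 h library, degron (++) 4 Gy 48 h replicate 2, degron (-) 4 Gy 30 h replicate 1 or degron (-) 4 Gy 48 h replicate 2, with adjusted p up to 0.0737.

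**Figure D3:**
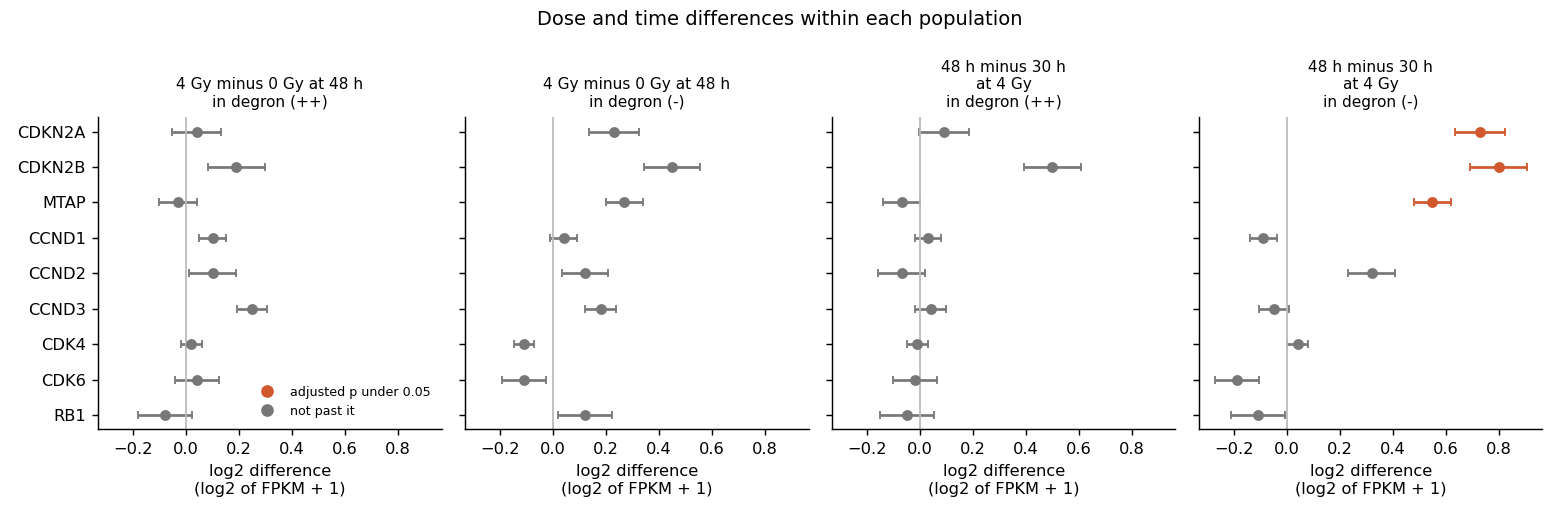
Log2 differences of the 9 genes, on the scale of log2(FPKM + 1), for dose at 48 h and for time at 4 Gy in each population, with bars of 1 SE from limma and orange points for an adjusted p under 0.05. CDKN2A (0.73), CDKN2B (0.80) and MTAP (0.55) passed in degron (-) cells between 30 h and 48 h, and no other point did.

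In FPKM, the degron (-) groups stood in 1 order for the 3 genes: both libraries of 4 Gy (30 h) lay under both at 0 Gy, and these under both of 4 Gy (48 h), although the step from 0 Gy to 4 Gy at 48 h did not pass the test above. As shares of degron (++), the 0 Gy and 4 Gy (48 h) libraries of CDKN2A overlapped. The same order of FPKM was found in 4.88% of the 12537 tested genes with a share, and in 0 of 17 tested neighbours on 9p. This order was read off the values of the 3 genes themselves, so these figures are a description. With 4.88% over all genes, 0 of 17 does not set the neighbours apart. KRT7, given below, stood in this order as well. The group at 30 h has no unirradiated partner of its own, so time after irradiation and time in culture cannot be told apart. Of the 5 duct markers, KRT7 alone passed in the same comparison: it was 199 and 173 FPKM at 0 Gy, 133 and 144 at 4 Gy (30 h), and 233 and 273 at 4 Gy (48 h) in degron (-), against 1142.4 to 1436.5 in degron (++). Its time difference was 0.86 ± 0.0911 in degron (-) (limma adjusted p = 0.00116), and the population difference of that change was -0.96 ± 0.129 (0.0109). In degron (-), KRT8 was at 0.24 ± 0.0636 (limma adjusted p = 0.0601), KRT18 at 0.20 ± 0.055 (0.0657) and KRT19 at 0.12 ± 0.062 (0.291), and SOX9 lay the other way, at -0.13 ± 0.0406 (0.104). The part of KRT7 in the 9p21 result was not tested.

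The duct markers KRT7, KRT8, KRT18, KRT19 and SOX9 were all present, with a summed FPKM of 6958.1 to 8129.3 in degron (++) and 4233.5 to 5110.5 in degron (-). The 4 keratins were higher and SOX9 lower in degron (++). Of the markers of other cells, CD3E (T cells) and DCN (fibroblasts) were listed at 0 in all 12 libraries, and PTPRC (leukocytes) reached at most 0.055. The endothelial sum of PECAM1 and CDH5 ran from 0.278 to 0.556 FPKM in degron (++) libraries and from 0.018 to 0.085 in the others. The immune sum was 2.96 to 4.64 and 124 to 165, nearly all of it the lysosomal gene CD68, and the fibroblast sum was 0.62 to 0.946 and 36.6 to 52.5, nearly all of it COL1A1. FPKM over all genes summed to between 829654 and 916877 in degron (++) libraries and between 707273 and 763064 in degron (-) libraries, of which MIR622 held 28.6% to 30.0% and 22.5% to 27.1%. Relative depth, read from the steps between low FPKM values, was 0.865 to 1.18. The 0.865, of degron (++) 4 Gy 30 h replicate 1, was read from far more genes (1744) than in any other library and may not be comparable. The part of these differences in the values of the 9 genes was not tested.

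Other genes around 9p21 were read in the same way. Of 52 names in the list, 45 were listed in the files, 18 of them at 0 in every library, among them the type I interferon genes except IFNE and IFNK, and 17 passed the filter. At 0 Gy, 13 of the 17 were higher in degron (++) cells, 1 was lower and 3 did not pass, with a median log2 difference of 0.51. Over all tested genes 77.7% passed, 37.6% higher and 40.2% lower, with a median of -0.02. In chromosomal order toward MTAP, the degron (-) share was 62.1% to 75% for RRAGA, 64.9% to 70.0% for HAUS6, 308% to 387% for the lipid droplet gene PLIN2, 61.3% to 77.9% for DENND4C and 37.8% to 46.2% for the ribosomal gene RPS6. It was 12.2% to 29.7% for MLLT3, 45.0% to 60.4% for KIAA1797 (FOCAD), 12.6% to 38.1% for PTPLAD2 (HACD4), 62.9% to 75.5% for KLHL9 and 113% to 159% for MIR31HG, the tested gene next to MTAP. Beyond CDKN2B it was 87.9% to 140% for DMRTA1, 47.5% to 71.5% for TUSC1, 43.4% to 67.6% for C9orf82 (CAAP1), 49.4% to 61.5% for PLAA, 70.3% to 97.0% for IFT74, 9.14% to 18.1% for MOB3B and 49.2% to 79.7% for C9orf72. MLLT3, PTPLAD2 and MOB3B had a median share under 30%. Of the 17 genes, 15 reached the filter in either population by itself, MLLT3 reached it in degron (++) alone and DMRTA1 in degron (-) alone, so that the shares of these last 2 were in part set by the filter. DMRTA1 was also low, with an FPKM of 0.553 to 0.972 in degron (++) and 0.734 to 1.097 in degron (-). MIR31HG was low too, at 1.17 to 2.38 and 1.97 to 2.45, with overlap, and did not pass (limma adjusted p = 0.0645). The shares of the tested genes on either side of the 3 genes thus rest on low FPKM. Of the 13, C9orf72 did not pass without degron (++) 0 Gy 48 h replicate 1 (limma adjusted p = 0.0553) or without replicate 1 of degron (-) 0 Gy 48 h (0.0548).

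**Figure D4:**
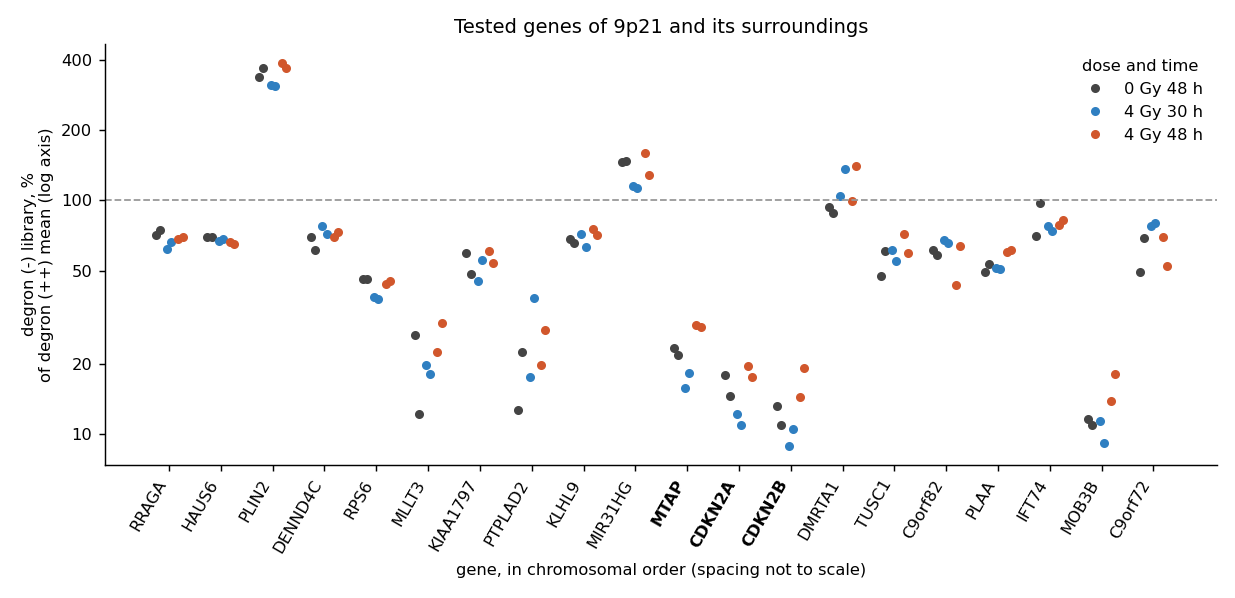
FPKM of each degron (-) library as a percentage of the degron (++) mean of the same dose and time, on a log axis, for CDKN2A, CDKN2B, MTAP (bold) and 17 tested neighbours in chromosomal order with spacing not to scale. The 3 genes lay between 8.91% and 29.3%, and MIR31HG and DMRTA1 beside them, the latter tested through its degron (-) level alone, lay between 87.9% and 159%. Both of these neighbours had a low FPKM, with overlap between the populations.

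The antisense transcripts of the locus were scarce. CDKN2B-AS1 (ANRIL) had an FPKM of 0.233 to 0.388 in degron (++) libraries and 0.02 to 0.047 in degron (-) libraries, with no overlap. C9orf53 (CDKN2A-AS1) was at 0 to 0.812 and 0 to 0.204. The kit keeps strand, but whether the counting used it is not given in the sources used here, so reads of these genes and of CDKN2A and CDKN2B may not be separated.

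The genes around the pathway were compared between the populations at 0 Gy with the same limma fit, and the calls are read against the 77.7% of all tested genes. Of 6 other CDK inhibitors, 1 was higher in degron (++), 2 lower and 3 not called, with a median log2 difference of 0.07. CDKN1A, the inhibitor p21, was lower, at -3.11 ± 0.0877 (SE, limma adjusted p = 4.43e-09), as was CDKN2C, the INK4 protein p18, at -1.98 ± 0.135 (1.07e-06). CDKN1B, p27, was higher, at 1.09 ± 0.0427 (3.04e-08), and CDKN2D, the INK4 protein p19, was at 0.24 ± 0.113 (0.0762). CDKN2A and CDKN2B on the one hand and CDKN2C on the other thus lay in opposite directions. Among genes that act with ARF, MDM4 was at 0.46 ± 0.0626 (limma adjusted p = 1.20e-04), NPM1 at 0.12 ± 0.0642 (0.12), and HUWE1, a ligase bound by ARF, at 0.13 ± 0.0449 (0.0244), which became -0.07 when libraries were rescaled to equal sums and did not pass without replicate 1 of degron (++) (0.14) or of degron (-) (0.138) at 0 Gy and 48 h.

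Downstream of RB1 the directions were mixed. Of 10 E2F and DP factors 3 were higher, 6 lower and 1 not called, with a median of -0.29, led by E2F5 (-1.02 ± 0.121), TFDP1 (0.74 ± 0.0503), E2F3 (-0.73 ± 0.0751) and E2F4 (0.66 ± 0.0544). Of 10 E2F target genes 5 were higher, 4 lower and 1 not called, with a median of 0.12. RRM2 was at -1.24 ± 0.0291, the licensing factor CDC6 at 0.93 ± 0.0477, TYMS at -0.67 ± 0.0463 and CDT1 at 0.58 ± 0.0578. Of 6 genes of cyclin E, cyclin A, CDK2 and the other pocket proteins, 3 were higher (CDK2 0.54 ± 0.0452, RBL2 0.40 ± 0.0618 and CCNA2 0.40 ± 0.0463), CCNE1 was lower (-0.21 ± 0.0618) and 2 were not called, with a median of 0.25. CCNE1 did not pass without replicate 1 of degron (++) (limma adjusted p = 0.0664) or of degron (-) (0.0982) at 0 Gy.

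Of 12 genes of methionine salvage, polyamine synthesis and the PRMT5 complex, which share metabolites with MTAP, 3 were higher in degron (++), 8 lower and 1 not called, with a median of -0.18. The spermidine synthase SRM was at -0.67 ± 0.0416, MAT2B at 0.57 ± 0.0651, AMD1, which makes the aminopropyl donor, at -0.53 ± 0.0438, and the salvage enzyme APIP at -0.47 ± 0.0625. PRMT5 itself was at -0.14 ± 0.045 (limma adjusted p = 0.0192), and did not pass without degron (++) 0 Gy 48 h replicate 1 (0.104) or degron (-) 0 Gy 48 h replicate 2 (0.132). Of 14 Polycomb subunits, which are known to silence the INK4 locus, 4 were higher, 5 lower and 5 not called, with a median of 0.02, led by EZH1 (1.34 ± 0.0791), BMI1 (-1.01 ± 0.329), CBX7 (-0.76 ± 0.072) and PCGF2 (0.69 ± 0.11). The BMI1 call was lost without degron (++) 0 Gy 48 h replicate 1 (-0.67, limma adjusted p = 0.136) and without replicate 1 (0.0768) or 2 (0.052) of degron (-) 0 Gy 48 h. Of 7 genes that link TGF-beta to CDKN2B, 3 were higher and 4 lower, with a median of -0.35. These were led by the receptor TGFBR2 (1.16 ± 0.0457), SMAD3 (-1.03 ± 0.0379), ZBTB17 (-0.79 ± 0.0753), which recruits MYC to CDKN2B, and MYC (-0.78 ± 0.0655).

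Of 87 tested genes of these lists, 2.3% passed for dose in degron (++), 2.3% for dose in degron (-), 1.15% for time in degron (++) and 6.9% for time in degron (-). Over all tested genes the shares were 1.82%, 4.73%, 1.21% and 7.18%, so the lists did not stand out. In degron (++), CDKN1A (0.47 ± 0.0877, limma adjusted p = 0.0413) and MYC (0.33 ± 0.0655, 0.049) passed as higher with dose, both near the threshold. Calls for dose in degron (++) depended on single libraries, as given below. In degron (-), TGFBR2 rose with dose (0.27 ± 0.0457, limma adjusted p = 0.0148) and SMAD3 fell (-0.21 ± 0.0379, 0.0214). From 30 h to 48 h, CDKN1B rose in degron (++) (0.28 ± 0.0427, limma adjusted p = 0.0258) and in degron (-) (0.22 ± 0.0427, 0.0188). In degron (-), EZH1 (0.35 ± 0.0791, limma adjusted p = 0.0353), MOB3B (0.35 ± 0.0886, 0.0498), RPS6 (0.18 ± 0.0342, 0.0159) and TGFBR2 (0.21 ± 0.0457, 0.0303) also rose. RRM2 fell (-0.33 ± 0.0291, limma adjusted p = 6.45e-04). How these dose and time calls of list genes fared under other settings is not given here.

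The genes most like the 9p21 genes were sought among 8114 autosomal genes with a mean FPKM of at least 5 in every degron (++) group, by the root mean square difference of log2 shares from the median of the 3 genes over the 6 degron (-) libraries. The 8 nearest were PKP2 (0.10), MPZL2 (0.11), RAB17 (0.12), DUSP4 (0.12), LIMCH1 (0.13), EFEMP1 (0.13), GRHL2 (0.13) and ESRP1 (0.14). Their degron (-) shares ran from 10.6% to 20.9% for PKP2, the nearest, and from 10.8% to 22.1% for ESRP1, the last of the 8. Of the other 6 genes, CCND2 ranked 67 (0.25), ahead of CDK4 at 2323, CCND3 at 4057, CCND1 at 4694, RB1 at 6091 and CDK6 at 7890. The 3 genes themselves lay at 0.05 (CDKN2A), 0.35 (CDKN2B) and 0.56 (MTAP) from their own median, so that CDKN2B and MTAP were farther from it than CCND2 was. That median was the share of CDKN2A in every degron (-) library except 4 Gy 48 h replicate 2. The distance of CDKN2A was therefore small by construction, and the search in effect found genes like CDKN2A. Its filter used degron (++) levels alone.

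**Figure D5:**
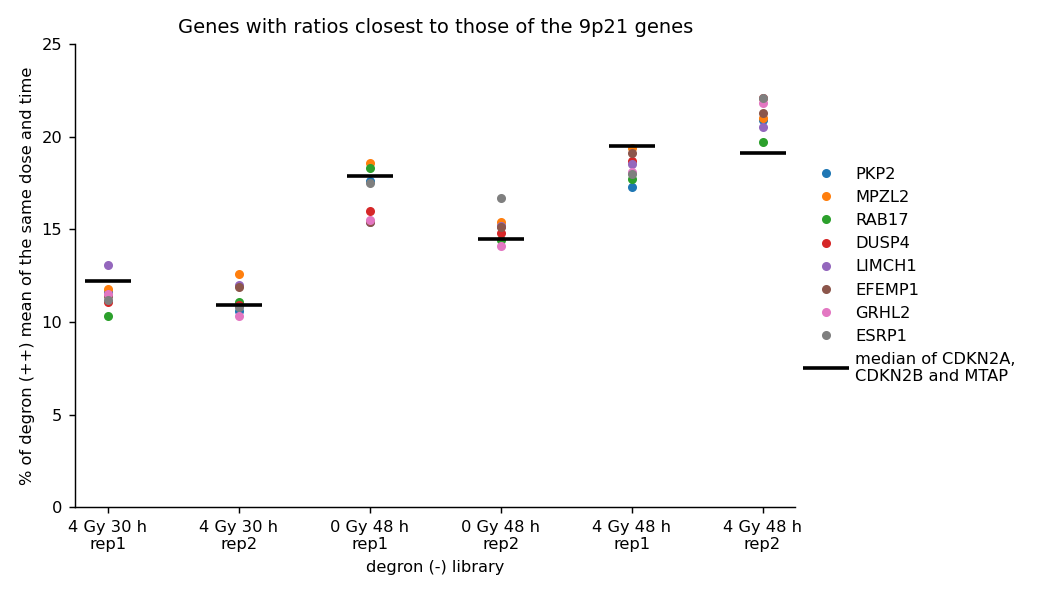
Share of the degron (++) mean of the same dose and time, in percent, in each of the 6 degron (-) libraries. Points show the 8 genes closest to the median of CDKN2A, CDKN2B and MTAP, and black bars show that median. All 8 lay between 10.3% and 22.1%, and the black bars ran from 10.9% to 19.5%.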

How the data were processed

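Total RNA was extracted from the 12 samples with the miRNeasy Micro kit and libraries were made with the TruSeq stranded mRNA kit, per the labels. The authors deposited FPKM per gene symbol and library. The submitters' processing notes name TopHat2 2.1.1, Bowtie2 2.2.8, SAMtools 0.1.18, Cuffdiff 2.2.1 and the build hg19. The annotation and the strand setting are not given in the sources used here. Counts were not used here, so absolute depth is unknown, no counting interval is given, and an FPKM of 0 was read as listed at 0.

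Groups followed the sample titles. From the FPKM, log2(FPKM + 1) was fitted with limma 3.58.1 in R 4.3.3 (6 group means over 12 libraries, eBayes with trend, Benjamini-Hochberg over the 12946 genes that reached an FPKM of 1 in 2 or more libraries, threshold 0.05). The fit was tested on simulated data: at a log2 change of 1, 89% of changed genes were recovered for dose in degron (-), with 7 false calls among 12946 genes, and 85% for the time interaction, with 6. Shares and levels were computed in Python 3.11.15 with numpy 2.4.6 and pandas 2.3.3 and drawn with matplotlib 3.10.9. Promoter windows are from RefSeq, GRCh38.p14, and neighbours were placed by RefSeq order only.

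The 9 genes and the lists were chosen with earlier results of these data known, so the population difference of the 9 genes was not tested. Their p-values for dose, time and the interactions carry the same limit and are given as a description. Named besides them are at most 4 genes a list by size of the difference, every tested 9p21 neighbour and the 8 genes most alike. PRMT5, KRT7, CDKN2B-AS1, C9orf53 and list genes that passed for dose or time were named after their values were seen. A gene that the rule selects, and the counts of its list, are not reported here. Alternatives were another pseudocount, filter, scaling, variance fit or set of libraries, a replicate block, and each library left out.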

Additional observations from a re-analysis of the deposited data

Results flagged for a closer look

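On the scale of log2(FPKM + 1), the time difference at 4 Gy differed between the populations for 2 of the 9 genes. Since the genes were chosen with their levels in these libraries known, the p-values are a description. For CDKN2A, the difference of 48 h from 30 h was lower in degron (++) than in degron (-) by -0.64 ± 0.132 on the log2(FPKM + 1) scale (SE, limma adjusted p = 0.0405), with 0.09 in degron (++) and 0.73 in degron (-). It was not past the threshold with no filter, with libraries rescaled to equal sums or without the variance trend (adjusted p up to 0.0684 over 8 settings), nor in 10 of 12 fits that left out 1 library. For MTAP it was lower by -0.62 ± 0.1 (limma adjusted p = 0.018), with -0.07 in degron (++) and 0.55 in degron (-). It was not past the threshold with only the libraries compared (0.0506) nor in 5 of 12 fits that left out 1 library. The sign was kept for both genes in every one of these fits.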

How the results depend on the processing

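The rise of CDKN2A from 30 h to 48 h in degron (-) held under all 8 other settings and all 12 omissions of a library (log2 0.66 to 0.81). Those of CDKN2B and MTAP held in all but the fit of only the libraries compared. Counts of genes past the threshold moved more. With only the libraries compared, which leaves fewer samples to estimate the spread, they were 54 for dose in degron (++) (236 in the reported fit), 48 for dose in degron (-) (612), 35 for time in degron (++) (156), 298 for time in degron (-) (930) and 169 for the time interaction (418). With libraries rescaled to equal sums (TPM) they were 58, 336, 38, 607 and 221 in the same order, and 18 for the dose interaction (10). The dose interaction gave 17 genes with a pseudocount of 0.1, 22 with a filter at FPKM 5 and 35 with quantile normalization, and the time interaction 273 with no filter. Dose in degron (++) gave 149 genes with quantile normalization and 128 without the variance trend, and time in degron (++) gave 78 without that trend. The cause was not tested.

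Leaving out 1 library gave 1 to 156 genes for dose in degron (++), 116 to 500 for dose in degron (-), 15 to 128 for time in degron (++), 286 to 947 for time in degron (-), 0 to 18 for the dose interaction, 67 to 394 for the time interaction and 9369 to 10066 for the population difference (10062). The lowest values came without degron (++) 0 Gy 48 h replicate 1 (1), degron (-) 4 Gy 48 h replicate 2 (116 and 286), degron (++) 4 Gy 30 h replicate 2 (15) and degron (++) 4 Gy 30 h replicate 1 (67), and the 0 without either degron (++) 0 Gy 48 h library.

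The labels give all groups replicate numbers 1 and 2. Deviations of same-numbered libraries correlated at -0.0381 to 0.122 over 15 pairs of groups. No source says whether same-numbered libraries were made together, and correlations of this size cannot settle it. With the replicate number as a block, dose in degron (++) gave 125 genes, time in degron (++) 88 and the dose interaction 2. No call of the 9 genes changed under the block.

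The median share of CDKN2A, CDKN2B and MTAP was 16.2%, 11.5% and 19.3% at 0 Gy, 4 Gy (30 h), and 4 Gy (48 h). Rescaling to equal sums gave 18.6%, 14.1% and 23.2%, the mean over the 3 genes 12.8% at 30 h and 21.4% at 4 Gy (48 h), and the mean of all 6 degron (++) libraries as the base 21.3% at 4 Gy (48 h). Leaving out 1 library gave 14.5% to 17.9%, 10.9% to 12.2% and 18.6% to 20.1%. Rescaling moved the median population difference of all genes from -0.02 to -0.22 and the higher share of its calls from 48.3% to 35.5%, and reversed HUWE1 (-0.07), MCM5 (-0.09) and TK1 (-0.01). Of 1373 values of 69 results on list genes under other settings, 40 were no longer past the threshold. It took the higher share of dose calls in degron (++) from 78.0% to 58.6%. Quantile normalization took that of time calls in degron (-) from 83.7% to 72.5% and that of dose interaction calls from 30.0% to 14.3%.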
